A study of Mus musculus with 4 samples.

Results

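Tg, the gene of thyroglobulin, and Sla, the gene of the Src-like adaptor protein that lies inside it, were described through the peaks of the histone mark H3K27me3 in GL261, a mouse glioblastoma cell line. They are 2 of 21887 protein-coding genes. They were selected on the peak lists themselves, by the number of peaks over the stretch of chromosome 15 they share, so the number of peaks and their folds and p are a description and carry no test. The series asked where H3K27me3 lies on the chromosomes of glioblastoma cells after radiation, by chromatin immunoprecipitation and sequencing (ChIP-seq). It holds an H3K27me3 library from control cells (labelled Con), an H3K27me3 library from cells labelled IR, taken to mean irradiated because the series title speaks of radiation, and an input library, which is DNA without immunoprecipitation, for each condition. All 4 libraries came from the same line in the same medium with serum. Neither the radiation dose nor the harvest time is given in the sources used here. With 1 library per condition there are no replicates, no difference between conditions could be set against replicate error, and every interval given is a 95% exact one for counting error only. Lists of peaks hold no expression values, so the identity of the line could not be checked against its markers.

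Thyroglobulin is the large secreted protein on whose tyrosines the thyroid hormones are made, and its gene is transcribed in the follicular cells of the thyroid and silent in most other tissues. Sla encodes an adaptor of T and B lymphocytes and myeloid cells that lowers the surface level and the signal of antigen receptors and of some receptor kinases. The nested gene is read from the strand opposite to Tg. H3K27me3 is laid down by Polycomb repressive complex 2 on silent genes, often as a broad domain over the gene rather than as a sharp peak.

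Tg lies on chromosome 15 from 66670754 to 66850721 in the build mm10, a length of 179.968 kb, and Sla from 66780819 to 66831829, a length of 51.011 kb. Sla thus begins 110.065 kb from the low end of Tg, which as background is the end where its transcription starts, and takes up 28.3% of the gene. A peak was counted for a gene when it overlapped the gene or the 2 kb on either side. The peaks of Sla are then all peaks of Tg as well. The annotation used gives the ends of genes and no exons, so exonic and intronic peaks were not told apart.

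Tg held 47 control peaks (exact Poisson interval 34.5 to 62.5) and 52 irradiated peaks (38.8 to 68.2), of 9866 and 16091 in the lists. Among all protein-coding genes 6.05% had at least 1 control peak, 8.2% at least 1 irradiated peak and 3.67% a peak in both lists. The irradiated list had 1.11 times as many peaks in Tg as the control list (0.731 to 1.68), against 1.63 times in the whole lists and 1.26 times on chromosome 15. In density these were 25.5 control and 28.3 irradiated peaks per 100 kb in Tg, 2.17 and 2.74 on the rest of chromosome 15, and 0.365 and 0.595 over the genome. The density of Tg was thus 11.7 (control) and 10.3 (irradiated) times that of the rest of its chromosome. Of 4945 protein-coding genes of at least 50 kb, 16.3% had at least 1 control peak and 17.9% at least 1 irradiated peak, and Tg ranked first in the control list both by number and by density. In the irradiated list its rank was 3 by both measures, after Ano2 and Col22a1 by number and after Sla and Ablim3 by density. Among all 21887 protein-coding genes of any length, Tg ranked 1 (control) and 3 (irradiated) by number. By density it ranked 20 and 58 among them.

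The dense stretch of peaks began close to the low end of Tg in both libraries. Below it lay a stretch with no peak, of 167 kb in the control list (after 66493782 and before 66660783) and of 167.734 kb in the irradiated list (after 66493211 and before 66660946). The peaks that bound this empty stretch overlapped between the lists on both sides. The empty stretch spans the genes Tmem71 and Phf20l1, each with 0 peaks in both lists, and ends 9.971 kb and 9.808 kb below Tg. From there to the counted span of Tg 3 peaks followed in each list. In the first 20 kb of the gene there were 11 control and 8 irradiated peaks. The high end was less sharp. In the 50 kb above Tg 2 control and 6 irradiated peaks were listed, or 4 and 12 per 100 kb, and in the 1 Mb above it 43 and 44, or 4.3 and 4.4 per 100 kb. In the 1 Mb below Tg there were 30 and 20 peaks. At the edges of the counted span, the first control peak inside lay at 66668906 to 66669884 with a fold of 4.91, and the nearest outside at 66667128 to 66667411 with a fold of 3.29. In the irradiated list a peak at 66668043 to 66668677 with 20 reads and a fold of 6.04 lay only 77 bp outside the span. It was stronger in fold than all but 1 of the irradiated peaks inside. At the high edge, the last control peak inside lay at 66851552 to 66852079 with a fold of 3.43 and the nearest outside began at 66854277, with the same fold of 3.43. The last irradiated peak inside lay at 66841885 to 66842432, with a fold of 4.10, and the nearest outside began at 66853418, with a fold of 4.16.

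**Figure D1:**
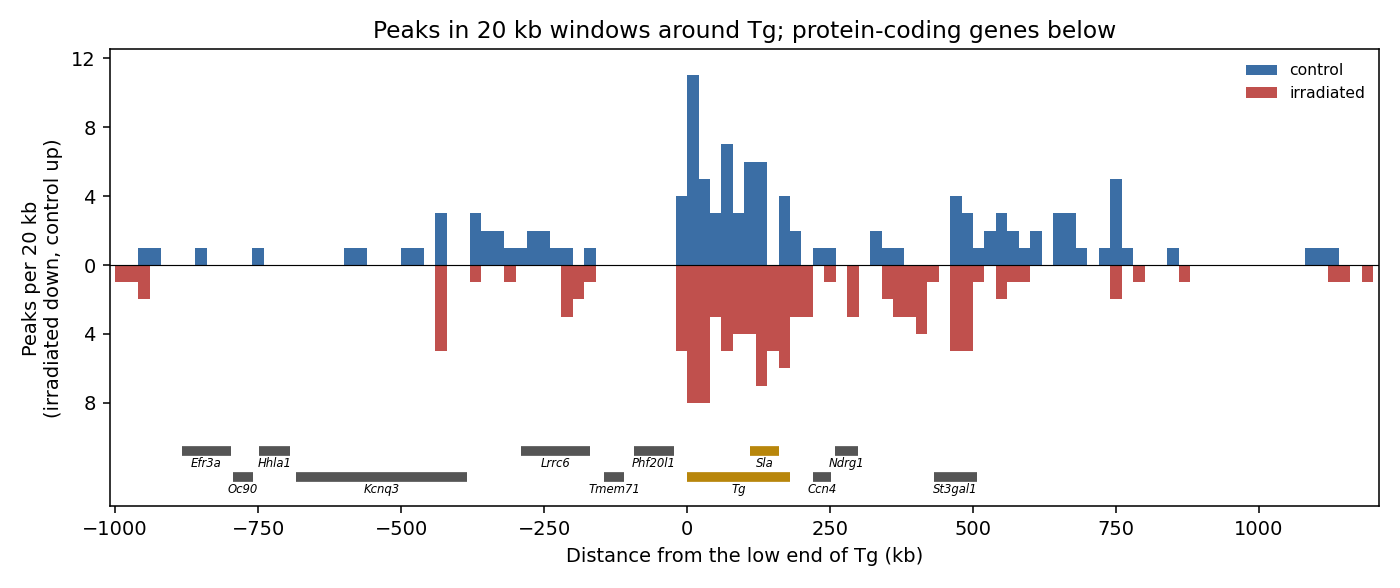
Number of peaks in windows of 20 kb (vertical axis, control upward and irradiated downward) against the distance from the low end of Tg in kb, with protein-coding genes as bars below. Both lists fall to 0 over Tmem71 and Phf20l1 and rise at the low end of Tg, where the first window holds 11 control and 8 irradiated peaks.

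Along Tg the peaks were spread over nearly the whole gene rather than gathered at 1 end. Summits of neighbouring peaks lay a median of 2.318 kb apart among control peaks (quartiles 1.25 and 4.26) and 2.299 kb among irradiated peaks (quartiles 1.16 and 4.50). On chromosome 15 outside Tg these medians were 10.5 and 4.13 kb. Of 46 control spacings 20 were under 2 kb and 3 over 10 kb, and of 51 irradiated spacings 22 and 2. When the gene was divided into 10 equal parts, from the low to the high end, the control list had 9, 5, 5, 3, 6, 2, 6, 5, 0 and 4 peaks and the irradiated list 6, 8, 4, 3, 6, 2, 4, 7, 5 and 5. The sixth part, just before Sla, was the thinnest of the irradiated list, and the ninth, in Sla, was empty in the control list. Control peaks covered 12.7% of the counted span of Tg and irradiated peaks 16.0%. Both lists together left 75.4% of it under no peak, so these lists hold a row of separate short intervals. The peaks were deposited in a format for narrow peaks, so whether 1 continuous domain covers Tg cannot be read from them. Median widths were 428 bp (284 to 1103) and 483 bp (270 to 1531), against 376 and 392 bp on the rest of chromosome 15. Of the Tg peaks, 4 of 47 control and 9 of 52 irradiated ones were at least 800 bp wide. The shares at this width were 5.68% and 9.42% on the rest of chromosome 15, and 3.31% and 5.20% in the whole lists.

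**Figure D2:**
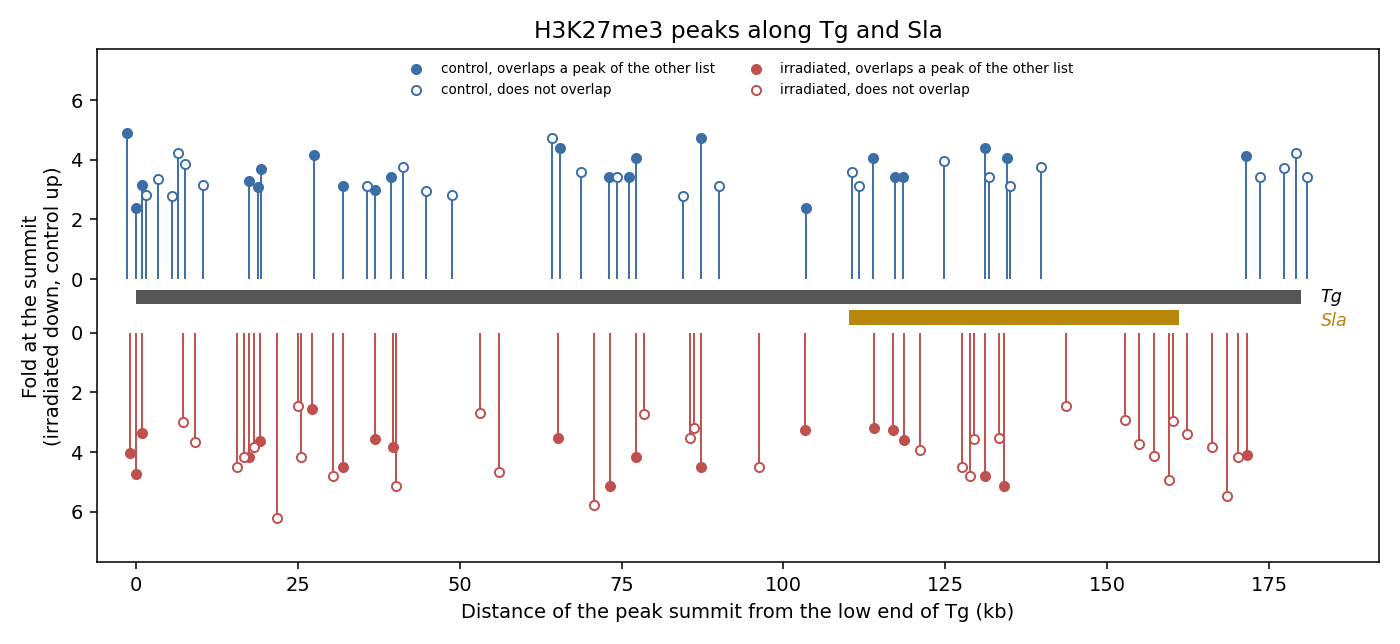
Each line is 1 peak of Tg, at the distance of its summit from the low end of the gene in kb (horizontal axis) and with its fold enrichment as height (vertical axis, control upward and irradiated downward). Filled dots mark the 22 control and 20 irradiated peaks that overlap a peak of the other list. Bars show Tg and Sla.

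Most peaks of Tg rested on few reads. How many ChIP reads stood at each summit was worked out from the peak's fold and p. It ranged from 7 to 17 in the control list, with a median of 10, and from 8 to 23 in the irradiated list, with a median of 12. In the control list 39 of 47 peaks had at most 12 reads, and in the irradiated list 29 of 52. The authors' fold at the summit had a median of 3.43 (2.40 to 4.91) among control peaks and 3.88 (2.46 to 6.20) among irradiated peaks, against 3.43 and 3.82 on the rest of chromosome 15. The lists were scaled separately, so the folds are not compared between them. The −log10 p had medians of 3.42 and 4.403 in Tg and of 3.64 and 4.08 on the rest of the chromosome. The peaks of Tg were therefore many, while their median folds and p lay close to those of other peaks of the chromosome.

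A q (p adjusted over the genome) of 0.05 or less was given to 4 of 47 in the control list, or 8.51% (2.37 to 20.4), where the whole list had 6.84%. It was given to 16 of 52 in the irradiated list, or 30.8% (18.7 to 45.1), where the whole list had 15.2% and chromosome 15 21.2%. A −log10 q of 0 was given for 14 of the 47 control peaks, and for 3452 of 9866 in the whole control list. No irradiated peak had it, in Tg or anywhere in the list. Of those at or under 0.05, 2 of the 4 control ones overlapped an irradiated peak of any strength. Among the 16 irradiated ones, 4 overlapped a control peak of any strength. None of the 4 overlapped any of the 16 (exact intervals 0 to 60.2% and 0 to 20.6%). The whole lists held 675 and 2453 peaks at this q, and their overlapping share is not given here.

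The control peaks with the highest −log10 p lay at 66734734 to 66735296 and at 66757823 to 66758371, each with 13 reads, fold 4.72 and q 0.0157. They are followed by the first peak of the span, at 66668906 to 66669884, with 16 reads and the same q, by a peak at 66677144 to 66677647 with 17 reads and a q of 0.0376, and by a peak at 66849793 to 66850247 with 13 reads and a q of 0.0519. These 5 peaks stand far apart, 2 of them near the low end, 2 in the middle and 1 at the high end of the gene. The strongest irradiated peak, at 66692335 to 66692736, rested on 23 reads, with fold 6.20 and q 3.08e-05. No control peak overlapped it. The peaks at 66741339 to 66741688, with 16 reads, and at 66839030 to 66839582, with 15, shared a q of 0.00171. A peak inside Sla at 66829395 to 66830434, with 17 reads, had a q of 0.00459, and one at 66696020 to 66696531, with 20 reads, had a q of 0.0114. None of these 5 irradiated peaks overlapped a control peak.

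The background under the peaks was not even along the gene. The background of a peak is the local number of reads that the peak caller took as the level to exceed. In the control list its lowest value was 0.918 scaled reads, and 24 of the 47 peaks of Tg stood on it. The 9 control peaks that lie up to 11 kb from the low end had backgrounds from 1.22 to 2.00, with a median of 1.68, while the rest of Tg had a median of 0.918. The 5 irradiated peaks of the same stretch had backgrounds from 1.03 to 2.00, with a median of 1.11, against 0.810 for the rest of Tg and a lowest value of 0.704 in the list. At least 1.5 times the lowest background was reached by 11 control peaks (23.4%) and 13 irradiated peaks (25.0%) of Tg, against 14.9% and 26.4% in the whole lists. The part of this background in the peaks of the low end was not tested.

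**Figure D3:**
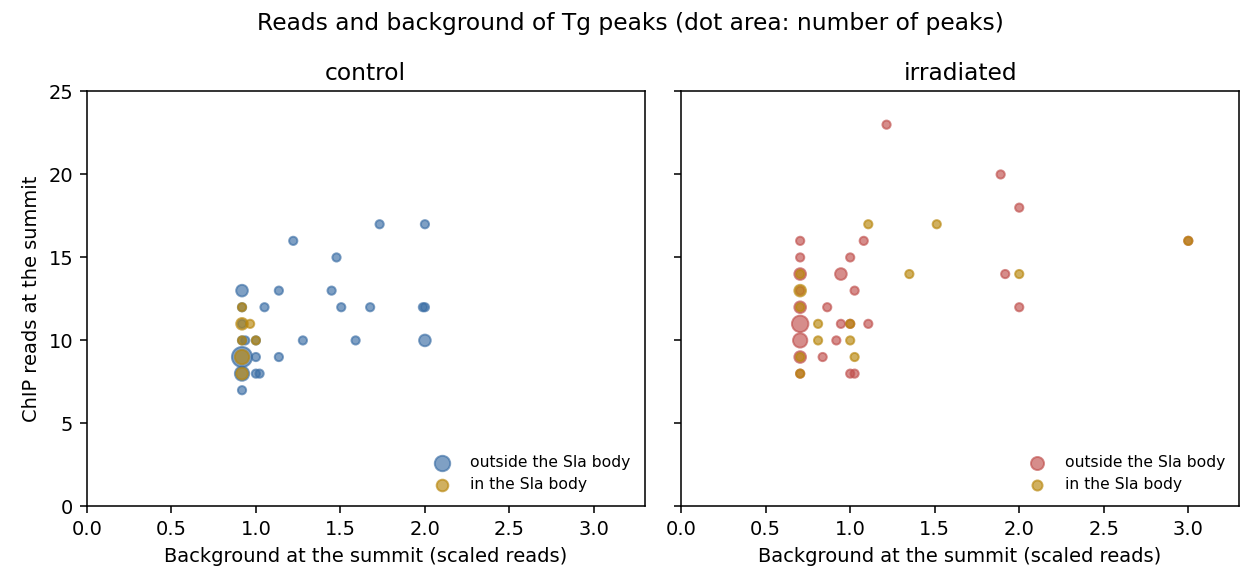
ChIP reads at the summit (vertical axis) against the background at the summit in scaled reads (horizontal axis) for the peaks of Tg, control on the left and irradiated on the right; the area of a dot gives the number of peaks, and peaks of the Sla body have their own colour. Many peaks stand at the lowest background of their list, 0.918 and 0.704, and the peak with most reads, 23, belongs to the irradiated list.

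Of the control peaks of Tg, 22 of 47 (46.8%, exact interval 32.1 to 61.9) shared 1 bp or more with an irradiated peak. Among irradiated peaks, 20 of 52 (38.5%, 25.3 to 53.0) did so with a control peak. The shares were 21.4% and 13.3% in the whole lists and 29.1% and 23.2% on chromosome 15 outside Tg. The part of the density of peaks in this overlap was not tested. The 22 overlapping pairs shared a median of 287 bp (109 to 869), and their summits lay a median of 153 bp apart (15 to 1046). In 12 pairs the overlap was at least 50% of both peaks. Together they covered 7454 bp, or 4.05% of the span, while 24.6% lay under a peak of either list.

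The overlapping pairs were found along the gene and not at 1 site. Before Sla, 16 pairs were met, from the peaks at 66668906 and 66669016 to those at 66774093 and 66773941. In the Sla body 5 pairs were met, and the last pair of the gene lay beyond Sla, at 66842024 to 66842391 and 66841885 to 66842432. The closest summits, 15 bp apart, were those of the pair at the low end of Tg. The widest shared stretches, of 869 bp each, belonged to the first pair and to the pair at 66697833 to 66698896 and 66697878 to 66698746. The latter had 15 control and 12 irradiated reads, with folds of 4.16 and 2.55. The pair at 66801526 to 66802113 and 66801379 to 66802174, inside Sla, had 12 control and 13 irradiated reads. In the last pair they were 12 and 12, and in the pair at the low end of Tg 10 and 16. The pair at 66743630 to 66744330 and 66743816 to 66744507 had 9 control and 14 irradiated reads. Library totals are unknown and a read is scaled differently in each list, so these reads are not compared between the lists.

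At the low end of Tg a peak covered the gene's first base in both lists. The control peak, at 66670672 to 66671170, had 10 reads over a background of 2.00 and a fold of 2.40, with a q of 1. The irradiated peak, at 66670550 to 66670960, had 16 reads over a background of 1.08 and a fold of 4.74, with a q of 0.0157. Within 2 kb of this end 4 control and 3 irradiated peaks were listed. The control peaks here and at 66774093 had the lowest fold of the control peaks of Tg, each over a background of 2.00, the level that the peaks at 66671969 and 66678220 also reached. At the high end of Tg the nearest control peak lay 474 bp away and the nearest irradiated peak 8289 bp away. The stretch of 10.985 kb between the irradiated peaks on either side of this end, from 66842432 to 66853418, had 4 control peaks. It was picked for holding no irradiated peak, so its difference between the lists is set by that choice.

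Sla held 11 control peaks (5.49 to 19.7) and 17 irradiated peaks (9.90 to 27.2). These were 23.4% (12.3 to 38.0) and 32.7% (20.3 to 47.1) of the peaks of Tg, where the Sla span with its 2 kb on either side makes up 29.9% of the counted span. In density Sla had 20.0 control peaks per 100 kb (9.98 to 35.8) and the rest of Tg 27.9 (19.6 to 38.6). In the irradiated list Sla had 30.9 (18.002 to 49.5) and the rest of Tg 27.1 (18.9 to 37.7). The density of Sla was thus lower than that of the rest of Tg in the control list and higher in the irradiated list, as a description of these lists with no test. The irradiated list had 1.55 times as many peaks in Sla as the control list (0.683 to 3.65) and 0.972 times as many in the rest of Tg (0.593 to 1.59). The difference between these ratios was not tested. No control peak of Sla had a q of at most 0.05 (exact interval 0 to 28.5%), where the whole control list had 6.84%. Of the 17 irradiated peaks 5 did, or 29.4% (10.3 to 55.96), where the whole list had 15.2% and chromosome 15 21.2%. Each interval holds the share of its whole list, and the difference between the conditions was not tested. Control peaks of Sla had 8 to 12 reads over backgrounds from 0.918 to 1.00, and irradiated ones 8 to 17 reads over backgrounds from 0.704 to 3.0.

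The longest control stretch without a peak in Tg ran for 31.372 kb, from 66810651 to 66842024, or 17.4% of the length of Tg. It takes in the high 21.178 kb of Sla (41.5% of the gene, the part that as background holds its transcription start) and the first part of Tg beyond it. The irradiated list had 10 peaks there, 6 of them in the Sla body. The stretch was picked for holding no control peak, so its difference between the lists is set by that choice. Up to this stretch the lists reached 42 control and 41 irradiated peaks, and 31 each before the span of Sla, though not at an even pace, with 7 control and 3 irradiated peaks in the first 10 kb. Beyond it 5 control peaks and 1 irradiated peak followed.

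The 10 irradiated peaks of this stretch had folds from 2.46 to 5.46, with a median of 3.78, and 9 to 17 reads. Of these, 3 had a q of at most 0.05. The nearest irradiated peak to the high end of Sla lay 689 bp inside the gene, at 66830755 to 66831140, with 9 reads, fold 2.95 and q 0.857. The control peak nearest to that end lay 10195 bp away. Backgrounds of the 10 peaks ran from 0.704 to 3.0, with a median of 1.07. They were at least 1.5 times the lowest in 5 peaks and at the lowest in 3. When both lists were held to equal numbers of peaks, 6 of the 10 remained, and with a −log10 p of at least 5 4 remained. The part of the background in this difference was not tested, and the control background of the stretch is not known, since it is given only where a peak was called. The next longest control stretch without a peak in Tg ran for 14.954 kb, from 66719779 to 66734734. On the rest of chromosome 15, where peaks are sparser, 29.5% of control spacings exceeded 30 kb. The longest irradiated stretch without a peak inside Tg ran for 12.749 kb, from 66711119 to 66723869, and held 3 control peaks.

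**Figure D4:**
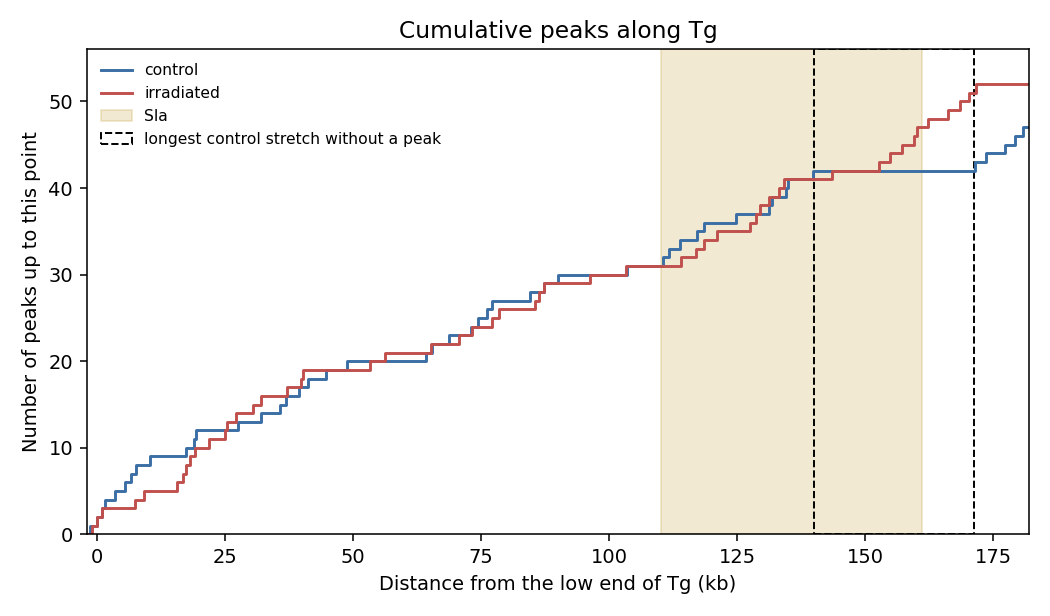
Number of peaks counted from the low end of Tg (vertical axis) against the distance in kb (horizontal axis) for both lists, with Sla shaded and the longest control stretch without a peak outlined. The lines reach 42 control and 41 irradiated peaks, then the control line stays level for 31.372 kb while the irradiated line gains 10 peaks.

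At the low end of Sla the order of the lists was the reverse. A control peak lay 288 bp inside the gene, at 66781107 to 66781474, with 10 reads, fold 3.60 and q 0.385, and the nearest irradiated peak 3809 bp inside, at 66784628 to 66785037, with 8 reads and a fold of 3.19. The strongest control peak of Sla, at 66801526 to 66802113, rested on 12 reads, with fold 4.399 and q 0.0823. It overlapped an irradiated peak with 13 reads, fold 4.81 and q 0.0119.

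The 5 genes most like Tg were taken by the sum over both lists of the difference in log2 density, among 515 other genes of at least 50 kb with a peak in both lists. Sla came first, at a distance of 0.48, and its peaks are also counted for Tg. Next came Fer1l6, a gene of the ferlin family (chromosome 15, 58510048 to 58665087), with 22 control and 42 irradiated peaks and a distance of 0.98, and Basp1, which encodes a membrane protein of growing axons (25363277 to 25413764), with 9 and 12 peaks and 0.99. Npr3, the clearance receptor gene for natriuretic peptides (11839896 to 11907837), had 10 and 16 peaks and a distance of 1.22. Ntf3, which encodes neurotrophin 3, lies on chromosome 6 (126101412 to 126166772) and had 8 and 17 peaks and a distance of 1.35. The control densities of Fer1l6, Basp1, Npr3 and Ntf3, from 11.5 to 16.5 peaks per 100 kb, lay below that of Tg. The likeness rests on 1 library per condition. Of 79 genes of 100 to 300 kb on chromosome 15, 34 had no control and 47 no irradiated peak, and the median densities were 0.639 and 0 per 100 kb.

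Among the 13 other genes of a list of neighbours of Tg on chromosome 15, 7 (53.8%) had a control peak, 6 (46.2%) an irradiated peak and 5 (38.5%) both, against 6.05%, 8.2% and 3.67% of all genes. Their median length was 74.1 kb. Of all 189 protein-coding genes of at least 50 kb on chromosome 15, 52.9% had no control peak and 63.0% no irradiated peak. The part of length and chromosome in the shares of the neighbours was not tested. On the low side of the empty stretch, Lrrc6, a gene of ciliary dynein assembly, had 7 control and 6 irradiated peaks, and Kcnq3, which encodes a neuronal potassium channel subunit, had 7 and 5. On the high side, Ccn4, a gene of a secreted matrix protein, had 2 control and no irradiated peaks. Its neighbour Ndrg1, a stress-responsive gene, had no control and 4 irradiated peaks. St3gal1, which encodes a sialyltransferase, had 7 and 10 peaks. Further off, Adcy8, which encodes an adenylyl cyclase, had 11 and 9 peaks, Khdrbs3, an RNA-binding protein gene, 5 and 11, and Efr3a, a gene of a membrane-anchored lipid kinase adaptor, 1 and 0. Oc90, Hhla1, Tmem71, Phf20l1 and Zfat had none in either list. The density of St3gal1, at 8.97 control and 12.8 irradiated peaks per 100 kb, was the highest among these neighbours and lay below that of Tg in both lists.

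Of 28 other genes of thyroid hormone synthesis and action, 7 (25.0%) had control peaks, where 6.05% of all protein-coding genes did. Irradiated peaks were listed in 7 (25.0%), against 8.2% of all genes, and both kinds in 4 (14.3%), against 3.67%. The shares in the list were thus above those of all genes, while the median number of peaks per gene was 0 in both lists, as over all genes. The median gene length was 15.2 kb in the list and 17.2 kb over all genes. None had a control peak with a q of at most 0.05, which 0.516% of all genes had, and 2 (7.14%) had an irradiated one, which 2.08% of all genes had. Slc16a10, an amino acid and thyroid hormone transporter gene, had 2 and 3 peaks, with an irradiated q of 0.00437. Tshr, the receptor gene for thyrotropin, had 2 control and no irradiated peaks, and Pax8, a transcription factor gene of thyroid cells, had 2 and 1. Duox2, which encodes an oxidase that supplies hydrogen peroxide, had 0 and 2, and Dio1, a deiodinase gene, 0 and 1. Slc26a7, an anion transporter gene, and Thrb, a thyroid hormone receptor gene, had 1 and 1 each. Lrp2, which encodes the endocytic receptor megalin, had 3 and 0. Each of the 8 genes named here had at most 3 peaks in a list, where Tg had 47 and 52.

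Of 27 genes of antigen receptor signalling besides Sla, 3 (11.1%) had control peaks, against 6.05% of all genes. Irradiated peaks were listed in 9 (33.3%), the 3 among them, against 8.2% of all genes. These genes had a median length of 39.9 kb, and the part of length in these shares was not tested. Grap2, a T cell adaptor gene that lies on chromosome 15 as well, had 3 control and 21 irradiated peaks, the strongest with q of 0.00382 and 0.000505. Its irradiated density of 24.9 per 100 kb was near that of Tg, while its control density of 3.56 was not. Cd3g, a gene of the T cell receptor complex, had 3 and 1. Its irradiated peak, at 44981926 to 44982195, lies inside Cd3d and is counted for Cd3g as well through the 2 kb window. Cd3e had 0 and 1. The kinase genes Lck and Syk, the exchange factor gene Vav1 and the receptor gene Csf1r had no control peak and 1, 1, 1 and 2 irradiated peaks, with the lowest q at 0.0536 for Lck. A q of at most 0.05 was reached by 1 of the 27 genes (3.70%), Grap2, in each list, against 0.516% (control) and 2.08% (irradiated) of all genes.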

How the data were processed

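H3K27me3 and input libraries of control and irradiated GL261 cells were sequenced; the peak lists of both H3K27me3 libraries were used. Per the submitters' processing notes, BWA, deepTools and the build mm10 were used; for versions, peak caller and settings, not given in the sources used here. Each library has its own list. Positions, as deposited, are in bp. The score, as deposited, equals 10 times −log10 p cut to a whole number. Each deposited fold is a ratio to local background made by the authors. The authors also deposited a −log10 p-value for each line and a −log10 q-value beside it. The largest p was 0.00495 (control) and 0.00499 (irradiated).

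Lines with a further summit of one interval (215 and 679) were merged with their peak. Reads and background were recovered from fold and p by a Poisson model, within a tolerance of 0.001 on −log10 p, for 100% of the lines of each list; 0.605% of control and 1.04% of irradiated lines had more than 1 solution, and the closest was kept. A single ChIP read was worth 0.620 (control) or 0.554 (irradiated) scaled reads. The model takes the fold as scaled reads plus 1 over background plus 1, so a fold is lower than the plain ratio of these. In lists of 3000 simulated peaks each the step returned 100% of reads and backgrounds. These peaks were made with the same model and the worth of a read was supplied, so neither of these was tested. Library totals are unknown. Gene positions are those of RefSeq on GRCm38.p6, which is mm10. Of the neighbour list 15 of 17 entries matched, and of the other lists 29 of 29 and 28 of 28.

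The members, lists and tests were chosen with earlier results of these data known. Genes were named by a rule: Tg and Sla, the 5 genes nearest to Tg in density, and each list member with a peak, of which 3 are counted but not reported here by name; for Tg the 5 strongest peaks per list, the peaks at gene ends and the longest gaps, and the overlapping pairs, of which a selection is printed. Alternatives were q or p thresholds, equal numbers of peaks, unmerged lines, merging within 1000 bp, other windows, other overlaps and other references. Calculations used Python 3.11.15, pandas 2.3.3 and SciPy 1.17.1.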

Additional observations from a re-analysis of the deposited data

How the results depend on the processing

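No paired analysis was possible because each condition has 1 library. Of 114 values under alternative settings, 76 stayed within the interval of the main value or, for counts, within 1.5 times of it, and 38 moved. With a q of at most 0.05, Tg had 4 control and 16 irradiated peaks, spaced 22.9 and 8.95 kb apart, with median folds of 4.72 and 4.81 and a median −log10 p of 6.21 and 6.10. The share in Sla fell to 0% in the control list (0 to 60.2). Overlap between the lists fell to 0% in both (0 to 60.2 and 0 to 20.6). The irradiated density ratio to the rest of chromosome 15 was 15.1. In the same setting, with Tg and Sla counted as members, the thyroid list had 1 control and 3 irradiated genes with a peak (8 and 8 with all peaks), the Sla pathway list 1 and 2 (4 and 10), and the neighbours 4 and 4 (9 and 8). With a −log10 p of at least 5, there were 9 and 23 peaks, spaced 20.8 and 4.14 kb apart, at density ratios of 16.9 and 13.9, with median folds of 4.399 and 4.65, a −log10 p of 5.50 and 5.95, an overlap of 22.2% and 8.70%, and 11.1% of control peaks in Sla. Merging within 1000 bp gave 34 irradiated peaks and spacings of 3.95 and 3.84 kb. Equal numbers of peaks gave an irradiated median fold of 4.17. A reciprocal overlap of 50% gave shares of 25.5% and 23.1%. Against the 1 Mb on either side, the control density ratio was 6.999. The fewer peaks under stricter thresholds account by construction for wider spacing and higher folds; for the other moves the cause was not tested. Each peak of Tg rests on 7 to 23 reads, which limits its precision.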
